A study of Homo sapiens with 6 samples.

Results

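The mRNAs of the polyamine pathway were examined in an eIF4B iCLIP experiment carried out in DoHH-2 cells, a DLBCL-derived line, and GM01953 cells, a control B-cell line. They were the 7 genes named ODC1, AMD1, SRM, SMS, OAZ1, OAZ2 and SAT1, taken by symbol from the 22125 genes with at least 1 count in either cell line. All 7 were found in both. Cells were UV cross-linked, eIF4B was immunoprecipitated with its RNA, and the nucleotide at which reverse transcription stopped was read as the cross-link position, with the number of cDNAs ending there as its count. The labels give 4 replicates of DoHH-2 and 2 of GM01953, after libraries with few reads had been merged. The values are a single table per cell line from pooled replicates, so no spread between replicates was measured and no test between the cell lines was made. The lines are not isogenic and each group is 1 line, so lymphoma and other differences between the lines cannot be told apart. No input RNA was used here, and more mRNA in a cell and more eIF4B on each mRNA cannot be told apart.

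eIF4B is an RNA-binding initiation factor that stimulates the helicase eIF4A, which opens structure in the 5′ UTR ahead of the scanning ribosome. Polyamines are small cations that bind RNA and are needed for growth, and their level is held by feedback that acts largely on translation and protein turnover. ODC1 makes putrescine, AMD1 supplies the aminopropyl donor, and SRM and SMS use it to make spermidine and spermine. The antizymes OAZ1 and OAZ2 bind ODC and send it to the proteasome, and polyamines favour the shift of reading frame that their own translation needs. SAT1 acetylates spermidine and spermine for breakdown or export.

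DoHH-2 held 2033156 counts at 1179243 positions and GM01953 held 167197 counts at 78474, a difference in depth of 12.2-fold. Counts were therefore given as CPM, counts per 1000000 counts of the cell line, with exact Poisson 95% intervals, which cover counting error only, as all intervals here do. Of 7 B-cell markers, 6 had counts in DoHH-2, where CD22 was at 0, and 7 in GM01953. Their summed level was 889 CPM in DoHH-2 and 3971 in GM01953. All 5 T-cell markers and both erythroid markers were at 0 in both lines. The myeloid list held 1 count in all, on CD68, and the epithelial list 2 counts on EPCAM, all in DoHH-2.

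The 7 genes together held 1869 counts in DoHH-2 and 206 in GM01953. OAZ1 held the most in both lines, with 749 counts in DoHH-2 against 91 in GM01953, which is 368 and 544 CPM. ODC1 came next with 391 and 43 counts, or 192 and 257 CPM. SAT1 held the fewest, 35 counts in DoHH-2 and 7 in GM01953.

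Counts were also placed on 1 mRNA per gene from GENCODE release 44 (GRCh38), the MANE Select transcript or, for OAZ1 and OAZ2, which carry no such tag in that release, the Ensembl canonical one. Per kb of mRNA, OAZ1 was at 313 CPM in DoHH-2 (95% interval 291 to 337), above every other member. SRM followed at 92.5 (81.1 to 105) and ODC1 at 70.1 (63.0 to 77.8). SMS at 34.9 and OAZ2 at 34.8 did not differ beyond their intervals, and neither did AMD1 at 20.5 (17.3 to 24.2) and SAT1 at 15.9 (11.0 to 22.3). In GM01953 the order per kb began with OAZ1 at 463 (372 to 570), and the intervals of SRM at 90.2 (54.3 to 141) and ODC1 at 82.1 (56.9 to 115) overlapped. Those of OAZ2, SAT1, AMD1 and SMS, between 55.6 and 21.1, overlapped as well. By total counts in DoHH-2, OAZ1 ranked 265 and ODC1 746 of 13153 protein-coding genes, while SAT1 ranked 7899.

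A position with an FDR below 0.05 was taken as a binding site, and a gene whose sites summed to over 20 counts was called bound. In DoHH-2, 6 of the 7 were bound, against 22.0% of all genes with a count, and their sites held between 64 counts on OAZ2 and 567 on OAZ1. SAT1 had no site in DoHH-2. In GM01953, 2 of the 7 were bound, ODC1 with 22 counts in sites and OAZ1 with 49, against 7.28% of genes. That count depends on depth and threshold, since 0 members passed with a limit of 50 counts and 3 with a limit of 10.

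Between the cell lines, CPM of the 7 genes together were 919 in DoHH-2 against 1232 in GM01953, which is a ratio of 0.75 (0.65 to 0.87). The direction of this ratio depended on what was counted, and it was 1.07 when only binding sites were used, each scaled to its own total. The median ratio of the 7 genes was 0.75, beside 0.87 over the 6230 genes with at least 5 counts in each line. The ratio was below 1 for 6 of the 7, as it was for 57.8% of those genes.

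Taken one by one, OAZ1 was the member whose ratio interval lay below 1, at 0.68 (0.54 to 0.85), but its ratio was 1.21 at binding sites and 0.47 with each position counted once. ODC1 was at 0.75 (0.54 to 1.05), AMD1 at 0.84 (0.49 to 1.54) and OAZ2 at 0.65 (0.40 to 1.13). SRM was at 1.09 (0.68 to 1.83), and at 2.09 when binding sites alone were used, from 140 and 7 counts. SMS was at 0.94 (0.53 to 1.80). SAT1, at 0.41 (0.18 to 1.10) from 35 and 7 counts, was the only member past 2-fold when all positions were used, against 24.0% of genes past 2-fold lower and 10.5% past 2-fold higher in DoHH-2. On mRNA exons alone its ratio was 0.56. With all positions, a difference was not detectable at this depth for 6 of the 7 members.

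Along the mRNA, the members carried a large part of their counts in the 5′ UTR. In DoHH-2, 586 of the 1757 counts on the 7 mRNAs lay there, 33.4% (Wilson interval 31.2 to 35.6), although the 5′ UTRs made up 10.3% of the length. The coding sequence held 41.1% and the 3′ UTR 25.5%. Over 7830 protein-coding genes with more than 20 counts on the mRNA, the median 5′ UTR share was 8.20% and the median 3′ UTR share 34.7%. In the summed counts of these genes the shares were 11.0% and 35.7%. The 5′ UTR share was above the median of 8.20% for 6 of the 7 members. The 5′ UTR was denser in counts than the rest of the mRNA in 7 of 7, as it was in 73.3% of coding genes. In GM01953, 55 of 184 counts lay in the 5′ UTR, 29.9% (23.7 to 36.9). Over 998 coding genes the median there was 12.5%, and the share of their summed counts 16.6%. There the sum rested on OAZ1, and was 53.7% without it.

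ODC1, the first and rate-limiting enzyme, lies at chr2:10439968-10448327 on the minus strand and has a 5′ UTR of 334 nt with 65.9% GC. Of its 353 mRNA counts in DoHH-2, 158 lay in the 5′ UTR, 44.8% (39.7 to 49.98), a share above that of 96.7% of coding genes. In GM01953 it was 14 of 34, 41.2% (26.4 to 57.8), so the lines did not differ beyond counting error. The 25 nt with the most counts, nt 123 to 147, held 41 counts in DoHH-2 and 3 in GM01953. The highest single position, with 18 counts, was at nt 210, the third base of exon 2, and held 1 count in GM01953. The highest in GM01953 was in the coding sequence at nt 530, with 4 counts there and 0 in DoHH-2. The reading frame of 33 nt upstream of the ODC coding sequence, nt 174 to 206, held 2 counts in DoHH-2 and 0 in GM01953. The windows of both positions are shown because they mark where each line had its most frequent stop on ODC1, with the cross-linked base in capitals. They lie at chr2:10445235-10445264 and chr2:10444535-10444564, minus strand, GRCh38.
ODC1 nt 210, highest in DoHH-2: atTgtcactgctgttccaagggcacacgca
ODC1 nt 530, highest in GM01953: caccccctttTatgcagtcaaatgtaatga

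AMD1, S-adenosylmethionine decarboxylase, lies at chr6:110874770-110898879 on the plus strand. It had the largest 5′ UTR share of the 7 in DoHH-2, 92 of 143 counts or 64.3% (56.2 to 71.7), in a 5′ UTR that is 9.38% of the mRNA and, with 42.99% GC, the lowest in GC of the 7. A lower share was found in 99.4% of coding genes. Counts per kb were 17.4 times those on the rest of the mRNA, beside a median of 2.20 over coding genes. In GM01953, 8 of 13 counts lay in the 5′ UTR, 61.5% (35.5 to 82.3). AMD1 translation is known to be held down by a short upstream reading frame near the cap. This frame, nt 12 to 32, held 5 of the 143 counts in DoHH-2, 3.50% (1.503 to 7.92), and 0 of 13 in GM01953. The highest position was nt 49, past the end of this frame, with 11 counts in DoHH-2 and 0 in GM01953. Further along the 5′ UTR, nt 124 held 10 counts and nt 215 held 8 in DoHH-2. In DoHH-2, 22 counts fell in nt 33 to 57, with 11 of them at nt 49. In GM01953 the position at nt 100 was the first of 4 tied at 2 counts, and it also held 2 in DoHH-2. The upstream frame is printed in capitals in the first window, chr6:110874792-110874821, and the cross-linked base in the others, chr6:110874823-110874852 and chr6:110874874-110874903, all on the plus strand of GRCh38.
AMD1 upstream reading frame: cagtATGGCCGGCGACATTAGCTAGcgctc
AMD1 nt 49, highest in DoHH-2: ctctactctcTctaacgggaaagcagcgga
AMD1 nt 100, in both lines: ctgcctctatTtccaaaagactcacgttca

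SRM, spermidine synthase, lies at chr1:11054584-11060020 on the minus strand and differed from the other members in DoHH-2. Its 5′ UTR of 75 nt, with 88.0% GC, held 18 of 237 counts, 7.59% (4.86 to 11.7), and 47.6% of coding genes had a lower share. The coding sequence held 59.9% and the 3′ UTR 32.5%, with 24 counts in nt 1166 to 1190. In GM01953, 9 of 19 counts lay in the 5′ UTR, 47.4% (27.3 to 68.3). The 5′ UTR of SRM was at 8.85 CPM in DoHH-2 against 53.8 in GM01953, giving a ratio of 0.16 (0.070 to 0.42). The intervals of the shares in the 2 lines did not overlap, but the GM01953 value rests on 5 positions. The highest position was in the coding sequence in both lines, at nt 270 in DoHH-2 with 9 counts and at nt 522 in GM01953 with 4, and each held 0 in the other line.

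SMS, spermine synthase, lies at chrX:21940709-21994837 on the plus strand. In DoHH-2, 31 of 121 mRNA counts lay in the 5′ UTR, 25.6% (18.7 to 34.1), and 57 in the 3′ UTR, 47.1% (38.4 to 56.0). The 3′ UTR was 2.23 times as dense as the rest of the mRNA, where the median over coding genes was 0.70, and nt 1511 to 1535 held 24 counts. The highest count at an mRNA position in DoHH-2 was 6, at nt 680 in the coding sequence, where GM01953 had 0, and tied with it at nt 1531 in the 3′ UTR. The 31 bases after nt 680 occur at 3 other places in the genome and those after nt 1531 at none. An upstream reading frame, nt 94 to 186, held 3 counts in DoHH-2 and 0 in GM01953. Only 6 of the 13 counts in GM01953 lay on the mRNA. Position 21941887 in an intron held 5 of them and 3 of the counts in DoHH-2. The 31 bases after it are a run of A that occurs at 77140 other places in the genome. Of all SMS counts, 25.7% in DoHH-2 and 53.8% in GM01953 lay before a 31-base word found elsewhere in the genome, so the values of SMS are uncertain. On mRNA exons alone the ratio of SMS was 1.66. The window of the intron position, chrX:21941877-21941906, is shown for this reason, with the cross-linked base in capitals.
SMS intron position, in both lines: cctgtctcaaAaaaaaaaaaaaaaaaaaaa

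For the other members the share of counts before a repeated word was at most 5.23%, on AMD1 in DoHH-2, and 0 in GM01953. OAZ1 is also covered by a second annotated gene, ENSG00000273734, under which 325 of its 330 positions in DoHH-2 and 45 of 47 in GM01953 were listed as well. Counts of these genes cannot be separated.

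OAZ1, the main antizyme, lies at chr19:2269509-2273490 on the plus strand, and with ODC1 it was a member with more than 20 mRNA counts in each line. Its counts were spread differently along the mRNA in DoHH-2 and GM01953, while those of ODC1 had nearly the same 5′ UTR share. In DoHH-2, 222 of 732 counts lay in the 5′ UTR of 79 nt, 30.3% (27.1 to 33.8). In GM01953 it was 4 of 89, 4.49% (1.76 to 11.0). The difference of 25.8 points (Newcombe interval 18.6 to 30.2) was exceeded by 4 of the 954 coding genes with more than 20 mRNA counts in each line, among which the median was -1.13 points and the quartiles -11.9 and 2.50. The 5′ UTR of OAZ1 was at 109 CPM in DoHH-2 against 23.9 in GM01953, giving a ratio of 4.56 (1.76 to 16.9), while its coding sequence was at 171 and 407, a ratio of 0.42 (0.32 to 0.55). The 3′ UTR was at 79.7 and 101.7, a ratio of 0.78 (0.47 to 1.38). With each position counted once the difference in 5′ UTR share was 11.8 points and its interval reached 0 (-0.046 to 18.2). With 25 nt to each side of the codons taken out it was 14.9 points (9.31 to 17.8), so part of it lay near the start codon. The 101 nt centred on the first base of the start codon, nt 30 to 130, overlap the 5′ UTR. They held 269 counts in DoHH-2, 36.7% (33.3 to 40.3), and 10 in GM01953, 11.2% (6.22 to 19.5).

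Within OAZ1, nt 49 to 73 held 122 counts in DoHH-2, 16.7% of its mRNA counts, and 3 in GM01953. The 2 highest positions in DoHH-2, nt 53 with 16 counts and nt 56 with 15, held 0 in GM01953. Of the 79 bases of the 5′ UTR, 73.4% had a count in DoHH-2 and 3.797% in GM01953, beside 27.3% and 3.92% of the bases of the whole mRNA. These shares move with depth. No position of the 5′ UTR held more than 2 counts in GM01953. Without nt 53 the difference between the lines was 24.3 points. In GM01953 the highest positions were nt 411 with 9 counts and nt 372 with 6, which held 2 and 1 in DoHH-2. Position nt 228, with 4 counts in GM01953 and tied with 2 others, held 7 in DoHH-2. The third position in DoHH-2, nt 109 with 12 counts, tied with 2 others and held 0 in GM01953. The windows show the cross-linked base in capitals, at chr19:2269562-2269591, chr19:2269565-2269594, chr19:2271811-2271840 and chr19:2271782-2271811 on the plus strand of GRCh38.
OAZ1 nt 53, highest in DoHH-2: agcggaggttTtcctggtttcggaccccag
OAZ1 nt 56, next in DoHH-2: ggaggttttcCtggtttcggaccccagcgg
OAZ1 nt 411, highest in GM01953: aacgtccaacGacaagacgaggattctcaa
OAZ1 nt 372, next in GM01953: Gatgatcggctgaatgtaacagaggaacta

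Antizyme is made only when ribosomes shift frame at the end of a short first reading frame. The sites of OAZ1 and OAZ2, chr19:2271428-2271457 on the plus strand and chr15:64691501-64691530 on the minus strand, differ at 1 of 30 bases and are shown with the stop codon of the first frame in capitals.
OAZ1 frameshift site: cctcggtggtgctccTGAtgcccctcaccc
OAZ2 frameshift site: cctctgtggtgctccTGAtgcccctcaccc

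In the 51 nt around the skipped base, OAZ1 had 33 counts in DoHH-2, 4.51% of its mRNA counts (3.23 to 6.26), and 3 in GM01953, 3.37% (1.15 to 9.45). The window is 51 of 1149 nt. OAZ2 had 4 counts there in DoHH-2, 2.92% (1.14 to 7.27), and 0 of 18 in GM01953, which allows a share of up to 16.7%. The first reading frame of OAZ1 held 29.0% of its counts in DoHH-2 and 33.7% in GM01953. The frame after the shift held 18.6% (15.9 to 21.6) in DoHH-2 and 42.7% (32.9 to 53.1) in GM01953, and these intervals did not overlap. The counts lay on 81 of 314 mRNA positions in DoHH-2 and on 15 of 45 in GM01953. In GM01953, nt 411 and nt 372 alone held 9 and 6 of them. The intervals do not allow for counts that share a position.

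OAZ2, the second antizyme, lies at chr15:64687573-64703281 on the minus strand. In DoHH-2, 44 of 137 counts lay in its 5′ UTR, 32.1% (24.9 to 40.3), and 59 in the 3′ UTR, 43.1% (35.1 to 51.4). In GM01953, 13 of 18 lay in the 5′ UTR, 72.2% (49.1 to 87.5), 0 in the coding sequence and 5 in the 3′ UTR. The direction of this difference was opposite to that of OAZ1. An upstream reading frame, nt 1 to 120 of a 5′ UTR of 233 nt, held 19 of the 137 counts in DoHH-2, 13.9% (9.06 to 20.6). In GM01953 it held 0 of 18. The 5 counts of the 3′ UTR in GM01953 lay on the single position nt 1516, which held 6 counts in DoHH-2. The highest position in DoHH-2 was in the coding sequence at nt 716, with 7 counts and 0 in GM01953. Their windows, with the cross-linked base in capitals, are chr15:64687973-64688002 and chr15:64688773-64688802 on the minus strand.
OAZ2 nt 1516, in both lines: ctttaaaacaCtagccaaactctaattaat
OAZ2 nt 716, highest in DoHH-2: tttgagattgTacgtccaggccatccctgt

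**Figure D1:**
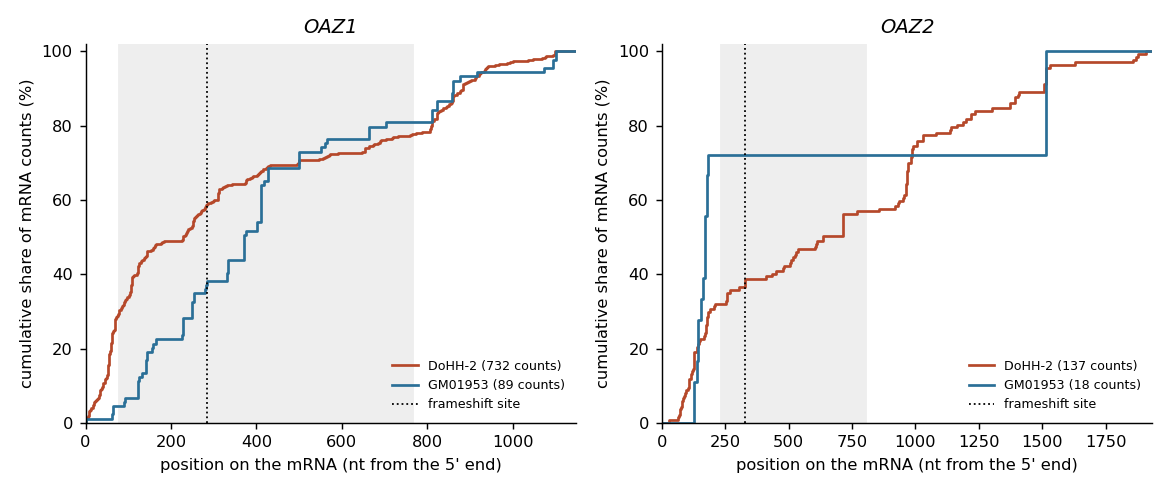
Cumulative share of mRNA counts from the 5′ end of OAZ1 (left) and OAZ2 (right) in DoHH-2 (red) and GM01953 (blue), with the coding sequence shaded and the frameshift site dotted. On OAZ1 the DoHH-2 line has reached 30.3% at the end of the 5′ UTR and the GM01953 line 4.49%, while on OAZ2 they have reached 32.1% and 72.2%.

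SAT1, the acetyltransferase that starts polyamine breakdown, lies at chrX:23783173-23786210 on the plus strand and held the fewest counts in both lines. In DoHH-2, 21 of 34 mRNA counts lay in the 5′ UTR, 61.8% (45.0 to 76.1), at 7.85 times the density of the rest of the mRNA. In GM01953 all 5 mRNA counts lay there (lower bound 56.6%), 3 of them at nt 125, which held 1 count in DoHH-2. An upstream reading frame that runs past the start codon, nt 106 to 195, is 90 nt long, beside 179 nt for the 5′ UTR. It held 10 of the 34 counts in DoHH-2, 29.4% (16.8 to 46.2). It held 4 of the 5 in GM01953. A shorter frame, nt 63 to 77, held 1 count in DoHH-2 and 0 in GM01953. The highest position in DoHH-2, nt 943 in the 3′ UTR, held 3 counts with an FDR of 0.46. SAT1 pre-mRNA is known for an alternative exon that leads to decay of the transcript. This exon of 110 nt, chrX:23784294-23784403, held 0 counts in both lines. With 35 and 7 counts on the whole gene, this does not show that the exon was absent.

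The positions themselves were partly shared. Of the members' 1103 positions in DoHH-2 and 124 in GM01953, 65 were common, 5.89% of the former and 52.4% of the latter. Over all coding genes these shares were 2.08% and 33.1%. These genes were not matched to the members by count, and a gene with more counts has more positions that can be shared. OAZ1 shared the most, 31 of the 65 positions or 66.0% of its own in GM01953, and SAT1 shared 1 of 5. Positions 21941887 and 21941888 in the run of A of SMS were among the 65.

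The base at the cross-link was U at 34.7% of the members' 1004 mRNA positions in DoHH-2, where 27.2% of the mRNA bases were U, and A at 11.95%, where 25.3% were A. The U share over coding genes in DoHH-2 was 41.1%. In GM01953, with 111 positions, U was at 27.0% and G at 33.3%, where 24.96% of the bases were G. Over coding genes in GM01953, U was at 38.4% and G at 25.8% of positions.

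Of 20 further genes of polyamine metabolism, transport and use, 14 had a count in DoHH-2 and 11 in GM01953. Of the 14 with a count in DoHH-2, 7 were bound, beside 22.0% of all genes with a count. Of the 11 with a count in GM01953, 1 was bound, beside 7.28%. The highest was EIF5A, the translation factor that carries hypusine made from spermidine, with 825 counts in DoHH-2 against 106 in GM01953 and a ratio of 0.64 (0.52 to 0.79). It has a near-identical processed copy in the genome, so its value is uncertain. AZIN1, the antizyme inhibitor, held 327 and 30 counts, a ratio of 0.90 (0.62 to 1.35), and 54.1% of its mRNA counts in DoHH-2 lay in the 5′ UTR. Of the 7 genes with at least 5 counts in each line, 3 were past 2-fold higher in DoHH-2 and 0 past 2-fold lower, with a median of 1.63. Over all 6230 such genes, 10.5% were past 2-fold higher and 24.0% past 2-fold lower, and the median was 0.87. The 3 higher genes were MAT2A, which makes S-adenosylmethionine, at 4.10 (2.06 to 9.57), the polyamine transporter ATP13A3 at 2.10 (1.04 to 4.92) and the salvage enzyme MTAP at 2.07 (1.22 to 3.82). Binding sites in DoHH-2 and GM01953 held 76 and 3 counts on MAT2A, 26 and 4 on ATP13A3, and 65 and 12 on MTAP. In DoHH-2, 239 of 399, 146 of 204 and 195 of 352 counts lay on their mRNAs. Ratios at binding sites or on exons alone were not computed for these genes, so their direction there is not given. SLC3A2, a transporter subunit, was at 1.63 (0.93 to 3.10) and DHPS, which starts hypusine synthesis, at 0.73 (0.31 to 2.07). MAT2B, SAT2, DOHH and ATP13A2 held at least 22 counts in DoHH-2 and at most 3 in GM01953.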

How the data were processed

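eIF4B iCLIP was measured in DoHH-2 (4 replicates) and GM01953 (2 replicates). The authors removed PCR duplicates, demultiplexed, trimmed, and used HiSat2 to map to GRCh38, after which the replicates of a line were pooled and iCount gave the number of cDNAs at each cross-link position. These counts were deposited as whole numbers without normalization, with an FDR (q-value) per position that the authors obtained by permuting counts within the gene. Tool versions and the annotation release are not given in the sources used here.

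Positions were tested at gene ends, found to count from 0, and moved to count from 1. Each position was counted once per gene. Totals were 2033156 and 167197 counts. CPM (counts scaled to the total of the line), exact Poisson intervals, ratios with exact conditional binomial intervals and Wilson intervals at 95% were computed with scipy 1.17.1, pandas 2.3.3 and pysam 0.24.0 on Python 3.11.15. They cover counting error only, and left-over PCR copies are not independent molecules. With 1 pooled table per line, no p-value was computed. A ratio past 2-fold was called, for genes with at least 5 counts in each line. The limit for a count of 0 is 3 counts. Regions came from GENCODE release 44, with the stop codon in the coding sequence and the skipped base of the antizymes put back. Words of 31 nt were searched over both strands of the genome without alternative contigs. The placing and ratio steps were tested on simulated data.

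The members and lists were chosen with earlier results of these data known. Named were the 7 members, other polyamine genes past 20 counts in DoHH-2, the highest position of each member per line (3 for OAZ1), and the 3 genes nearest to OAZ1 in region shares. The alternatives were other FDR and count limits, sites alone, each position once, other totals, other transcripts, codon regions taken out, a shift of 1 nt and equal depth.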

Additional observations from a re-analysis of the deposited data

How the results depend on the processing

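No paired analysis was possible because each cell line has 1 table of pooled replicates, and for the same reason no replicate could be left out. The number of members bound in DoHH-2 stayed between 6 and 7. In GM01953 it was 2, and 1 with an FDR below 0.01, 0 with more than 50 counts and 0 with more than 20 sites. The summed ratio of 0.75 was 1.07 at binding sites, 0.59 with each position counted once and 1.14 for positions expected at equal depth (141 in DoHH-2 against 124 in GM01953), or 0.68 when these are divided by the positions of each line, so its direction depends on what is counted. The cause was not tested. The 5′ UTR share of 33.4% in DoHH-2 was 42.5% at binding sites, 26.5% with each position counted once, 29.9% on the longest coding transcripts, 38.1% as a mean of the members' own shares, and 21.4% and 26.4% with 50 nt and 25 nt to each side of the codons taken out. Counts near the codons were taken out of the regions but kept in the total, so a share can only fall in that setting. The share of 29.9% in GM01953 was 39.6% with each position counted once, 51.4% as a mean of the members' shares and 53.7% without OAZ1. The difference of 25.8 points in the 5′ UTR share of OAZ1 was 39.1 at binding sites, 11.8 with each position counted once and 14.9 with codon regions of 25 nt taken out. It was not computed with regions of 50 nt taken out. This difference was taken up as a result after seeing the data, with some of the alternatives planned for the region shares. Leaving out its highest position (24.3) and the equal-depth ratio of 0.68 were also added after seeing the data. In GM01953, 5 of the 7 members had fewer than 20 counts, which limits every share and ratio that uses them.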

Other observations

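Some counts lay off the mRNAs. The base just before the first nt of the mRNA is where a cDNA that ran to the end of the transcript would be recorded. It held 4 counts on ODC1 in DoHH-2 and 2 in GM01953, and 1 in each line on OAZ1. AMD1 and SMS each had 1 count there in DoHH-2. On OAZ1 and AMD1 this base also lies in exons of 2 and 3 other transcripts, so it need not be the end of a transcript. ODC1 also had 7 counts in DoHH-2 and 3 in GM01953 further upstream, at 30 to 157 nt before the annotated start. Introns held 5.14% of the members' counts in DoHH-2 (4.22 to 6.23) and 7.77% in GM01953 (4.84 to 12.2). Of these 96 and 16 counts, 37 and 6 lay in exons of other transcripts of the genes, among them 15 of the 16 on OAZ1 in DoHH-2. A further 7 of the 16 in GM01953 lay in the run of A in SMS, where the mapping is uncertain.

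Among 3007 coding genes with at least 100 mRNA counts in DoHH-2, the genes whose shares in the 5′ UTR, coding sequence and 3′ UTR were nearest to those of OAZ1 were NPM1, TRMT1L and ACSL3, with summed absolute differences of 1.55, 1.66 and 2.45 points. Their 5′ UTR shares were 29.6%, 30.9% and 29.1%, beside 30.3% for OAZ1.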
